A study of Homo sapiens with 36 samples.

Results

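The regions described here held a called CTCF peak in several knockdowns of components of the same chromatin complex and none in the control list. CTCF peaks of HEK293T cells, a human embryonic kidney line, were taken from 6 lists and merged wherever they overlapped or touched on chromosomes 1 to 22 and X. Regions were chosen by the peak calls alone: a merged region was kept if it held peaks of at least 3 of the 5 knockdown lists and no peak of the control list. This left 1041 of 54382 merged regions (1.91%, exact Clopper-Pearson 95% interval 1.80 to 2.03, counting error only). They are called recurrent added regions below.

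Chromatin immunoprecipitation and sequencing (ChIP-seq) with an antibody to CTCF was done on HEK293T cells that were depleted, by small interfering RNA, of MBD2, MBD3, CHD3, CHD4 or CHD5, or received a control small interfering RNA (siNC). Each of the 6 conditions had 3 immunoprecipitates and 3 inputs, 36 samples in all, and the lists are named siNC, siCHD3, siCHD4, siCHD5, siMBD2 and siMBD3. Each list pools the 3 replicates of 1 condition, so no value below has a spread between replicates, and no test between conditions was made. All groups are of 1 transformed cell line under transient knockdown, and the extent of depletion was not analysed here.

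CTCF is a zinc-finger protein that binds a long DNA motif at insulators and at the anchors of chromatin loops, where it stops the loop-extruding cohesin ring. NuRD joins a nucleosome-remodelling helicase (CHD3, CHD4 or CHD5) to histone deacetylases and to a methyl-CpG-binding-domain protein (MBD2 or MBD3, which do not occur together in 1 complex), and MBD2 binds methylated CpG whereas mammalian MBD3 binds it poorly. CTCF does not bind some of its motifs when they are methylated or covered by nucleosomes. Positions are hg19, 1-based, and genes, exons, motifs and sequences of that build were not used here.

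Since the calls chose the regions, the counts by list are a description. Of all merged regions, 20.5% were called in siCHD3 and not siNC, 7.45% in siCHD4 and not siNC, 5.42% in siCHD5 and not siNC, 4.40% in siMBD2 and not siNC, and 6.21% in siMBD3 and not siNC. Among the 1041 recurrent added regions, 843 held a siCHD3 peak (81.0%, interval 78.5 to 83.3), 730 a siMBD3 peak (70.1%), 696 a siCHD4 peak (66.9%), 595 a siCHD5 peak (57.2%) and 578 a siMBD2 peak (55.5%). The order differed from that of the 24738 regions called in siNC and at least 3 knockdown lists, called control-shared regions below. There siCHD5 came first with 94.0%, followed by siMBD2 (87.1%), siMBD3 (83.5%), siCHD3 (82.7%) and siCHD4 (77.5%).

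Most recurrent added regions met the minimum number of lists and no more. Of the 1041, 768 (73.8%) were called in 3 knockdown lists, 227 (21.8%) in 4 and 46 (4.42%) in all 5. Control-shared regions had the opposite order, with 22.9% in 3, 29.3% in 4 and 47.7% in all 5. Just outside the minimum lay 3084 regions called in exactly 2 knockdown lists and not siNC, and 1678 of these (54.4%) were the pair siCHD3 and siCHD4. Each knockdown list was set against the same siNC list, so the 5 sets of added regions share their control.

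Regions lacking a given list but called in at least 3 of the others were fewest when that list was siNC. With siNC as the absent list, the 1041 regions were 4.04% of the 25779 regions called in at least 3 of the other lists. The same count was 3453 (12.8%) with siCHD5 as the absent list, 6855 (23.9%) with siMBD2, 7260 (26.0%) with siCHD3, 7981 (27.6%) with siMBD3 and 9110 (32.0%) with siCHD4. Lists cut to equal length gave 3073 for siNC, 3418 for siCHD5 and 6652 for siCHD3, so siNC stayed lowest and drew near to siCHD5. The siNC list was also the one with the most peaks (36270) and the highest background coverage, 2.96 fragments per bp against 0.374 to 1.95 in the knockdown lists.

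The number of recurrent added regions moved with the settings. A −log10 q of at least 10 in the knockdown lists left 87 of them, and a −log10 q of at least 5 left 399. Leaving out the siCHD3 list and asking for 3 of the other 4 gave 447, and leaving out siCHD4, siCHD5 or siMBD3 gave 558, 665 and 533.

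One combination led. The 3 lists siCHD3, siCHD4 and siMBD3, without siCHD5 or siMBD2, held 266 regions (25.6%, interval 22.9 to 28.3), more than the next 3 combinations together, which had 87 (siCHD5, siMBD2 and siMBD3), 83 (siCHD3, siCHD5 and siMBD3) and 81 (siCHD3, siCHD4 and siMBD2, tied with siCHD3, siCHD5 and siMBD2). Among regions called in exactly 3 knockdown lists, the leading combination made up 34.6% of added regions and 11.9% of control-shared regions. The most frequent combination of the latter, siCHD5 with siMBD2 and siMBD3, made up 21.6% of them and 11.3% of the added ones. All 16 possible combinations occurred, the rarest being siCHD4, siMBD2 and siMBD3 with 13 regions.

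**Figure D1:**
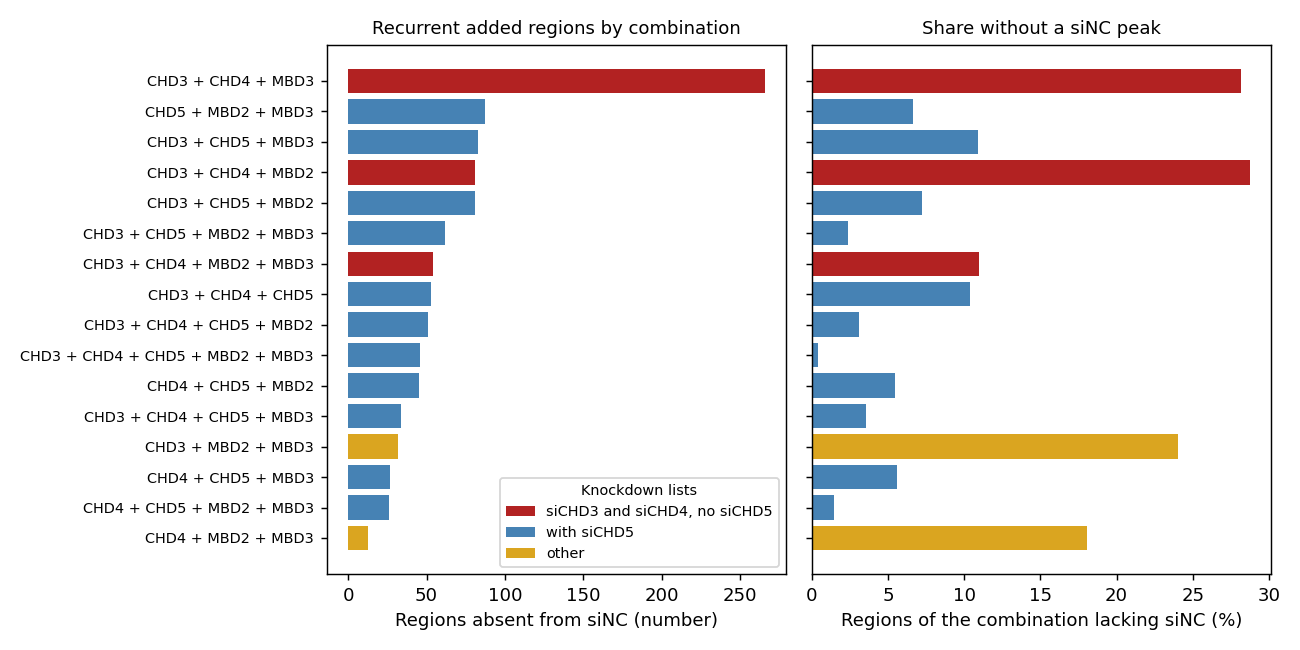
Left, number of recurrent added regions for each combination of knockdown lists; right, the percentage of all regions with that combination of knockdown peaks that had no siNC peak. Colours give the class of the combination. The combination of siCHD3, siCHD4 and siMBD3 leads with 266 regions, and 28.2% of all regions with that combination lacked siNC, against 0.388% where all 5 knockdown lists held a peak.

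On this pattern, which was seen before the split was made, the regions were divided into 3 classes. The CHD3-CHD4 class held siCHD3 and siCHD4 peaks but no siCHD5 peak and had 401 regions (38.5%, interval 35.6 to 41.6). The CHD5 class held a siCHD5 peak and had 595 (57.2%), and 45 regions fell in neither. The share of the CHD3-CHD4 class moved with the settings. It was 19.5% of the regions left at a −log10 q of at least 10 in the knockdown lists and 19.8% at 5. With the same thresholds in all 6 lists it was 25.8% and 27.7%, and with lists cut to equal length it was 43.5%. Of all regions with at least 3 knockdown peaks and the same make-up, siNC was absent from 401 of 1719 in the CHD3-CHD4 class (23.3%, interval 21.3 to 25.4) and from 595 of 23855 in the CHD5 class (2.49%, interval 2.30 to 2.70). Among the regions in neither class, which also lack a siCHD5 peak, siNC was absent from 45 of 205 (22.0%, interval 16.5 to 28.2), so the higher share was not particular to the CHD3-CHD4 class. The classes also differ in number of lists, as only the CHD5 class can hold all 5, where the share was 0.388%. At exactly 3 lists, siCHD3 and siCHD4 had 28.2% with siMBD3 and 28.7% with siMBD2. Combinations of 3 lists with siCHD5 had from 5.46% to 10.9%.

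Peaks of the CHD3-CHD4 class ranked high in the siCHD3 list, near the middle in siCHD4 and low in the lists of the MBD proteins. Fold enrichment, the authors' ratio of pileup to local background at the summit, ranks peaks within 1 list and is given here with its percentile in that list. In siCHD3 the 401 peaks had folds from 2.02 to 58.0 with a median of 8.89, the 82.0th percentile of that list. In siCHD4 their median was 5.34 (range 1.90 to 16.1), the 58.0th percentile, near that of control-shared regions in the same list (median 5.20, the 54.2nd). The 320 siMBD3 peaks of the class had a median fold of 4.77 (range 2.24 to 14.2), the 14.9th percentile, and the 135 siMBD2 peaks a median of 4.60 (range 2.16 to 14.3), the 12.3rd. The strongest 10% of the siCHD3 list supplied 139 of the 401 siCHD3 peaks (34.7%), and the strongest 10% of siMBD3 supplied 5 of 320 (1.56%). By the rule, a region of this make-up was kept only if siMBD2 or siMBD3 also called it. The pair siCHD3 and siCHD4 alone held 1678 regions without such a call. The part of this selection in the low ranks of the MBD lists was not tested.

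The CHD5 class was of modest strength in every list. Its 595 siCHD5 peaks had folds from 1.38 to 16.5 with a median of 5.32, the 28.0th percentile. Median folds were 5.94 in siCHD3 (44.2nd percentile), 4.61 in siCHD4 (36.9th), 5.81 in siMBD2 (33.1st) and 5.96 in siMBD3 (35.5th). Control-shared regions stood higher than the CHD5 class in all 5 lists, with median percentiles from 54.2 (siCHD4) to 61.5 (siCHD3). Of the 100 recurrent added regions with the highest median percentile over their lists, 77 were of the CHD3-CHD4 class and 23 of the CHD5 class. These classes made up 38.5% and 57.2% of all recurrent added regions. The make-up of a class fixes the lists behind this median. In the CHD3-CHD4 class siCHD3 and siCHD4 always enter it, and in the CHD5 class siCHD5 always does, so the count is a description.

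Control-shared regions with the make-up of the CHD3-CHD4 class showed the same profile, more strongly. There were 1318 of them, with a median fold of 13.8 in siCHD3 (93.8th percentile), 7.48 in siCHD4 (87.5th), 5.50 in siMBD3 (26.4th) and 4.89 in siMBD2 (16.5th). Their siNC peaks were weak, with a median fold of 4.56, the 34.1st percentile of the siNC list. The added regions of this class thus had lower siCHD3 and siCHD4 folds than regions of the same make-up in which siNC was called. The siNC call itself split these sets, as it did the CHD5 class and the control-shared regions above. The part of that split in the differences of fold was not tested.

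**Figure D2:**
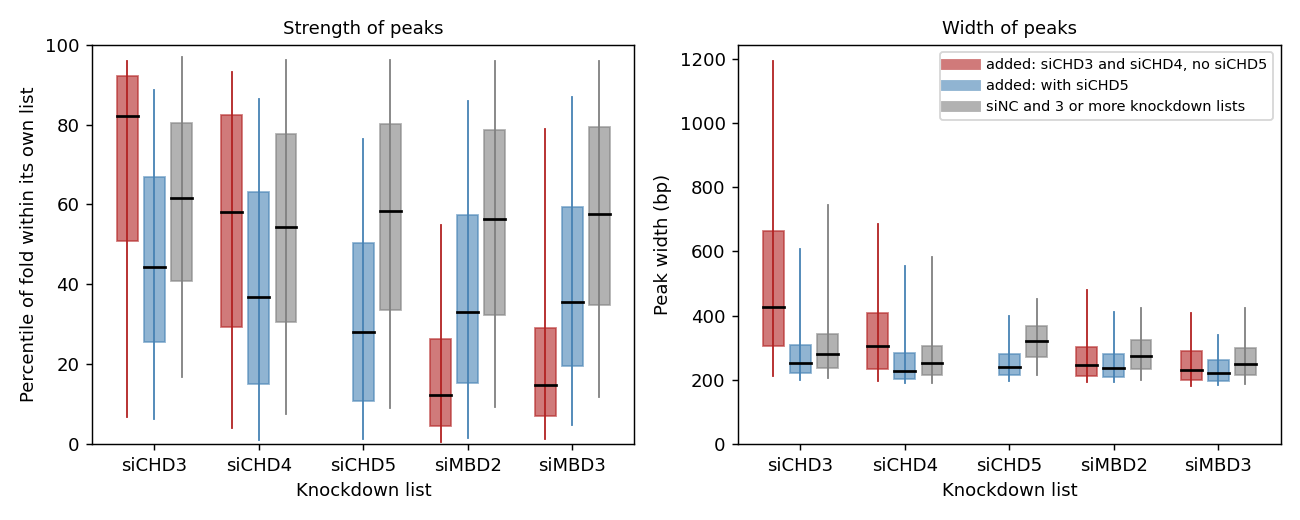
Percentile of fold within its own list (left) and peak width in bp (right) for peaks of the 2 main classes of recurrent added regions and of control-shared regions, by knockdown list. Boxes span the quartiles, black lines mark medians and thin lines the 5th to 95th percentiles. Peaks of the CHD3-CHD4 class (red) sit high and wide in siCHD3 (median width 428 bp) and low in siMBD2 and siMBD3.

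Width separated the classes as well. Merged regions of the CHD3-CHD4 class had a median width of 461 bp (quartiles 340 and 723 bp), against 321 bp (280 and 372 bp) in the CHD5 class and 392 bp in control-shared regions. Control-shared regions with the make-up of the CHD3-CHD4 class were wider still, with a median of 584 bp and 22.2% over 1 kb, so the width went with the make-up and was not particular to the added regions. Over 1 kb were 43 of 401 regions (10.7%) in the CHD3-CHD4 class and 11 of 595 (1.85%) in the CHD5 class. The siCHD3 peaks had a median width of 428 bp in the former and 252 bp in the latter class, and the siCHD4 peaks 306 and 227 bp. In siMBD3 the medians were 231 and 221 bp. Several summits within 1 peak were listed for 66 of the 401 siCHD3 peaks (16.5%) of the CHD3-CHD4 class and 18 of 410 (4.39%) of the CHD5 class. For siCHD4 peaks the shares were 5.99% and 6.38%.

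Summits agreed closely between lists in the CHD5 class and less in the CHD3-CHD4 class. The distance between the outermost knockdown summits of a region, taking the strongest summit of each list, had a median of 33 bp (quartiles 20 and 53) in the CHD5 class, 75 bp (35 and 192) in the CHD3-CHD4 class and 24 bp (16 and 36) in control-shared regions. It exceeded 100 bp in 160 of 401 regions of the CHD3-CHD4 class (39.9%), 78 of 595 of the CHD5 class (13.1%) and 5.16% of control-shared regions. Wider peaks leave more room for summits to differ, and the part of width in this difference was not tested. Control-shared regions with the make-up of the CHD3-CHD4 class were alike, with a median of 57 bp and 33.2% over 100 bp.

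**Figure D3:**
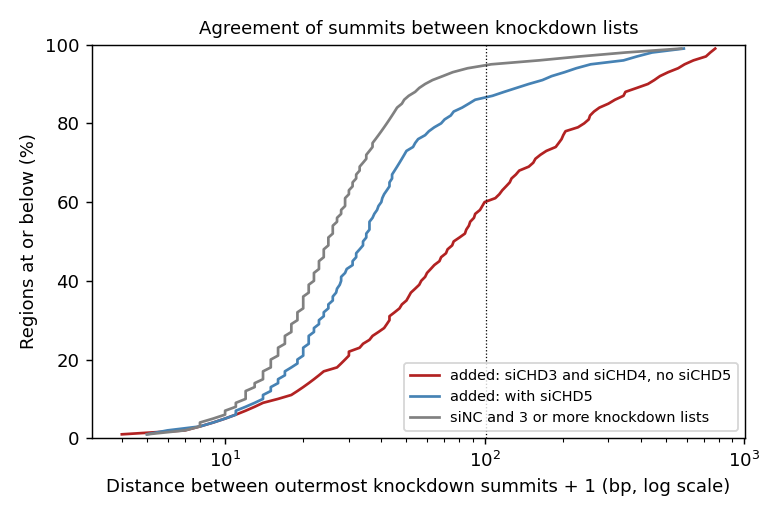
Cumulative percentage of regions against the distance between their outermost knockdown summits (log axis, 1 bp added). The dotted line marks 100 bp, which 39.9% of the CHD3-CHD4 class, 13.1% of the CHD5 class and 5.16% of control-shared regions exceed.

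Local background also differed. Solved from the authors' fold and p, and divided by the lowest background of the same list, it had a median over regions of 1.29 in the CHD3-CHD4 class, 2.20 in the CHD5 class and 3.98 in control-shared regions. Of these sets the CHD3-CHD4 class lay closest to the floor of the background, but a low background was not particular to it. In siCHD3 and siCHD4 the medians were 1.32 and 1.32 in this class. Control-shared regions of the same make-up had 1.66 and 1.53, and those with siCHD5 had 4.47 and 4.95. Regions called in only 1 or 2 knockdown lists and not siNC lay lower, at 1.14 and 1.21. Summits of both classes rested on few fragments. Median pileups at the summit were 14 fragments in siCHD3 and 6.5 in siMBD3 for the CHD3-CHD4 class, and 27 in siCHD5 and 10 in siMBD3 for the CHD5 class, against 20 in siCHD3, 56 in siCHD5 and 18 in siMBD3 for control-shared regions.

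The siNC coverage at the added regions was not analysed here, so how far it lay below a call is not known, and the part of depth in the missing siNC calls was not tested.

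The 10 regions of highest median percentile were all of the CHD3-CHD4 class, in which siCHD3 and siCHD4 are always among the lists that enter the median. The highest median percentile, 97.8, belonged to chr1:40598874-40599111, a narrow region of 238 bp with folds of 19.6 in siCHD3, 16.1 in siCHD4 and 14.1 in siMBD3 and summits within 2 bp. It was high in all 3 lists that called it. Next came chr10:74677264-74677913, with folds of 58.0 in siCHD3, 15.5 in siCHD4 and 10.9 in siMBD3 and summits within 4 bp, the highest siCHD3 fold of any recurrent added region.

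On chr6:80662761-80663615 the folds were 19.1 in siCHD3, 12.1 in siCHD4 and 5.30 in siMBD2, and on chr9:66059214-66059947 they were 18.0 in siCHD3, 11.7 in siCHD4 and 4.37 in siMBD3. Both show the fall from siCHD3 to the MBD list that is seen in the medians of the class. The region chr20:5974932-5975322 had 21.9 in siCHD3, 10.1 in siCHD4 and 5.87 in siMBD3. The region chrX:122755079-122755385 had 18.7, 10.8 and 9.13 in the same order, and lay 48081 bp from the nearest siNC peak.

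Regions just outside the rule had median percentiles as high. The 3 regions of highest percentile among those called in exactly 2 knockdown lists were all pairs of siCHD3 and siCHD4. They were chr20:34319854-34320069 (folds 50.4 and 16.4), chr21:33031971-33032173 (21.7 and 10.6) and chr22:20114479-20114843 (26.3 and 9.79), and no siMBD3 or siMBD2 peak was called there.

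Within the CHD5 class, the leading region of each common combination ranked unequally in its lists. On chr17:58179662-58180010 the folds were 11.8 in siCHD3 (91.9th percentile), 8.51 in siCHD4 (91.6th) and 3.04 in siCHD5 (1.70th). On chr17:19078837-19079142 they were 11.3 in siCHD3, 11.1 in siMBD3, 8.73 in siMBD2 and 5.68 in siCHD5, with summits within 4 bp. Without siCHD3 or siCHD4, chr5:156091781-156092158 had 6.10 in siCHD5 (42.4th), 8.58 in siMBD2 (82.3rd) and 9.42 in siMBD3 (87.6th). The nearest siNC peak was 150932 bp away. On chr1:179261457-179261799 siCHD5 ranked highest with 9.61 (85.8th), followed by siMBD3 with 8.67 (80.8th) and siCHD3 with 4.07 (10.5th). The list in which a region ranked highest thus varied from region to region.

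The 46 regions called in all 5 knockdown lists stood near the middle of siCHD3, siMBD2 and siMBD3 and lower in siCHD4 and siCHD5. Control-shared regions had higher median percentiles in every knockdown list, from 54.2 (siCHD4) to 61.5 (siCHD3). Of these, 47.7% were called in all 5 knockdown lists, so the sets differ in number of lists. Percentiles of the control-shared regions called in all 5 are not given here. Median folds of the 46 were 6.35 in siCHD3 (52.0th percentile), 4.67 in siCHD4 (38.6th), 5.87 in siCHD5 (38.2nd), 6.73 in siMBD2 (52.6th) and 6.83 in siMBD3 (52.2nd). Against the 11811 regions called in all 6 lists, the 46 are 0.388% of the regions with all 5 knockdown peaks. The setting mattered: lists of equal length gave 200 such regions, and a −log10 q of at least 10 in the knockdown lists gave 2.

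The strongest of the 46 by median percentile was chr6:74229620-74230968, a wide region of 1349 bp with folds of 18.4 in siMBD3, 13.9 in siCHD3, 11.7 in siMBD2, 5.15 in siCHD4 and 2.76 in siCHD5. Its summits spread over 843 bp and a siNC peak lay 410 bp away, so the 5 lists did not mark 1 point. By contrast chr6:32982530-32982891 was compact, with summits within 25 bp and the nearest siNC peak at 29621 bp. Its rank was not even, running from the 51.6th percentile (siMBD2) and the 68.9th (siCHD5) up to the 90.9th (siCHD4). The fold there was 11.1 for siCHD3, 8.25 for siCHD4, 7.79 for siCHD5, 6.69 for siMBD2 and 9.46 for siMBD3. On chr19:3485039-3485303 the folds were 10.1, 7.54, 8.52, 6.25 and 7.78 in the same order, with summits within 21 bp. On chr18:20611444-20611868 siCHD5 stood out with 16.5, against 9.77 in siCHD3, 3.36 in siCHD4, 8.97 in siMBD2 and 8.78 in siMBD3.

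The weakest of the 46 were wide and diffuse. The lowest, chrX:114970525-114971886, had folds from 2.92 (siCHD5) to 5.04 (siCHD3) with summits over 680 bp. It was followed by chr8:43096604-43097087, with folds from 3.06 to 5.21, and chrX:61706441-61707059, with folds from 2.67 to 4.83. All 3 had a siNC peak within 1467 bp.

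Recurrent added regions lay nearer to control peaks than regions added in fewer lists did. Within 1 kb of a siNC peak were 95 of 1041 (9.13%, interval 7.45 to 11.0), and 447 (42.9%, interval 39.9 to 46.0) were within 10 kb. The median distance was 12828 bp. Regions called in only 1 or 2 knockdown lists and not siNC had a median of 18328 bp, with 6.28% within 1 kb (interval 5.93 to 6.65) and 34.8% within 10 kb (interval 34.1 to 35.5). Within 100 bp were 0 of the 1041 (upper limit of the exact interval 0.354%) and 13 of those 17410 (0.0747%). No test of these differences was made. The number of siNC peaks within 500 kb had medians of 18 in the CHD3-CHD4 class, 17 in the CHD5 class and 15 in control-shared regions.

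At the near edge of the rule, chr9:139923317-139923639 lay 183 bp from a siNC peak, with folds of 3.25 in siCHD4, 4.87 in siCHD5 and 5.14 in siMBD2. The next, chr1:155277697-155278144 at 208 bp, was stronger, with 10.4 in siCHD3, 8.28 in siCHD4 and 8.58 in siMBD3. The farthest was chrX:688630-688940, 403892 bp from any siNC peak, with 4.85 in siCHD3, 4.88 in siMBD2 and 9.21 in siMBD3.

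The 3 widest recurrent added regions were all on chromosome 16 and called after CHD3 and CHD4 knockdown without siCHD5. The widest, chr16:21845940-21848983, spanned 3044 bp with folds of 11.8 in siCHD3, 6.31 in siCHD4, 5.49 in siMBD2 and 7.28 in siMBD3. On chr16:30234628-30236623 the folds were 12.9, 3.88, 4.87 and 5.82 in the same order, and the summits lay up to 1256 bp apart. The third, chr16:21413618-21415445, had 10.4 in siCHD3, 5.34 in siCHD4 and 6.55 in siMBD3.

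Shares of the classes differed most on chromosome 19. Chromosome 19 held 47 of the 595 regions of the CHD5 class (7.90%, interval 5.86 to 10.4), 9 of the 401 of the CHD3-CHD4 class (2.24%, interval 1.03 to 4.22) and 3.69% of control-shared regions (interval 3.46 to 3.93). Chromosome 17 held 6.55% of the CHD5 class (interval 4.70 to 8.85), 5.24% of the CHD3-CHD4 class (interval 3.27 to 7.89, overlapping that of the CHD5 class) and 4.45% of control-shared regions. Chromosome 12 held 2.52% of the CHD5 class (interval 1.42 to 4.12), 5.49% of the CHD3-CHD4 class and 5.40% of control-shared regions. Chromosomes were compared without a test, and 23 were looked at.

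**Figure D4:**
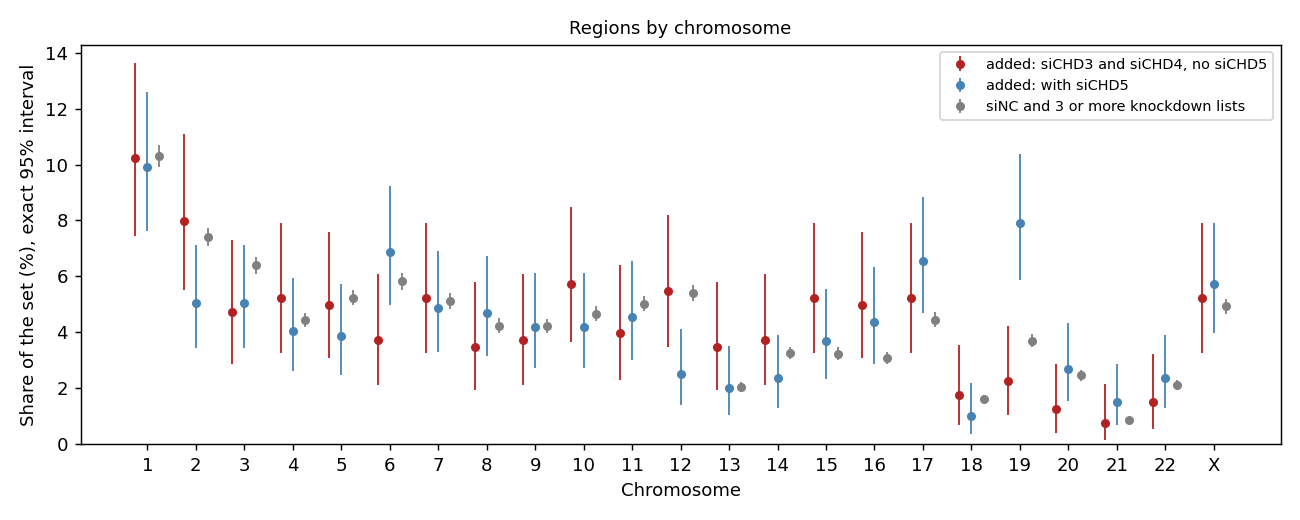
Share of each set of regions on each chromosome in percent, with exact 95% intervals that cover counting error only. The CHD5 class (blue) has 7.90% on chromosome 19, above the 2.24% of the CHD3-CHD4 class (red) and the 3.69% of control-shared regions (grey).

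Some regions came in rows. Of the 1041, 194 (18.6%) had another recurrent added region within 100 kb and 62 (5.96%) within 10 kb. These shares were not counted for other sets, so they do not show whether added regions lay closer together than other regions. The longest row joined 14 regions with gaps of at most 10 kb on chrX:114965080-115003849, 38770 bp in all. Their starts stood a median of 3038 bp apart, and the 14 siNC peaks of the same stretch had summits a median of 2982 bp apart. The knockdown lists held 32 peaks there in siCHD4, 30 in siCHD3, 28 in siMBD2, 25 in siCHD5 and 17 in siMBD3. Median folds were taken over all peaks of the stretch, those of regions shared with siNC included. They were 31.6 (siMBD3), 8.73 (siNC), 7.73 (siCHD5), 6.29 (siCHD3), 4.93 (siCHD4) and 4.50 (siMBD2). Each median covers a different set of peaks, and fold ranks peaks within 1 list only. The order of these medians is therefore no measure of a gain or loss of CTCF between conditions, which was not tested. The 14 added regions themselves were weak, with median percentiles from 1.25 to 21.0, and the local background over the stretch was 9.04 times the lowest of the list (median over peaks).

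A shorter row on chr8:86729701-86735971 had 3 regions whose starts were 2866 and 2867 bp apart, with knockdown folds from 2.41 to 5.57, and 4 more regions lay on chr8:86799939-86817316. On chrX:58564345-58577026, 5 regions with starts a median of 2991 bp apart had folds from 2.10 to 5.08 over a background of 50.4 times the lowest. A row of another kind was chr6:31237737-31249084, with 3 regions and no siNC or siCHD5 peak in the whole stretch. Its 4 siCHD3 peaks had a median fold of 12.1 and its 3 siCHD4 peaks one of 5.82, and the background was at its floor (1.00 times the lowest). The rows, other than the 3 closest groups of 3, were picked out after their positions were seen.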

How the data were processed

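The deposited files were 6 narrow-peak tables of the kind MACS2 writes, 1 per condition, named as 3 replicates called together, treatment against control. The submitters' processing notes name hg19, MACS2 2.1.2, Bowtie2 2.3.4, deepTools 3.5.0, bedtools 2.25.0, SAMtools 1.9 and FastQC 0.11.7; their roles, filters and thresholds are not given in the sources used here. Used were the authors' fold enrichment (a linear ratio), the deposited −log10 p and −log10 q (smallest −log10 q 1.30) and the deposited summit offset. The deposited display score was not used.

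Where several lines listed 1 interval with different summits, only the line of highest fold was kept. Peaks were merged in Python 3.11.15 (numpy 2.4.6, scipy 1.17.1, pandas 2.3.3), and bedtools 2.31.1 gave the same 54382 regions and 1041 recurrent added regions. The regions, classes and comparison sets were chosen with earlier results of these data known. Depth per sample was not analysed here. Summit pileup and background were solved from the fold (both with 1 added) and the Poisson p of each peak. A whole number of fragments gave p back within 0.01% for every peak of the 6 lists. The lowest solved background of a list stood for its depth. In simulated lists all 864 planted regions were found with 0 false ones, and all 4823 simulated pileups were recovered. This checks the code only. The planted regions lay well apart, and the pileups were simulated with the same formulas that were then solved.

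Named regions followed a rule: the highest median percentiles of fold, the strongest and weakest called in all 5 knockdown lists, the leader of each combination holding at least 5% of regions, the widest, those nearest to and farthest from a siNC peak, the strongest called in 2 lists, and the closest groups of 3 within 100 kb. The leading ones are printed. Alternatives were stricter −log10 q, equal list lengths (25358 peaks), other merging and summit rules, other minimum numbers of lists, leaving out each list, leaving out peaks over 1 kb and using all contigs. Motifs, genes and sequences had been planned but were not analysed here.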

Additional observations from a re-analysis of the deposited data

How the results depend on the processing

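No paired analysis was possible because each list pools its 3 replicates. Against 1041 regions, 46 in all 5 lists and 81.0% with a siCHD3 peak, a −log10 q of at least 5 in the knockdown lists gave 399, 27 and 76.2%, and in all 6 lists 502, 30 and 77.1%. A −log10 q of at least 10 gave 87, 2 and 72.4% in the knockdown lists, and 178, 8 and 69.1% in all 6 lists. Lists of equal length gave 3073, 200 and 73.7%. At least 2 lists gave 4125 regions (76.6% with siCHD3), and at least 4 gave 273 (90.5%). Leaving out siCHD3 gave 447 regions with 72 in all lists used and no siCHD3 share, siCHD4 558 and 108, siCHD5 665 and 100 (94.1% with siCHD3), siMBD2 701 and 80 (92.4%), and siMBD3 533 and 97 (86.7%). Summits within 100 bp gave 70 in all 5 lists and 78.3% with siCHD3, and without peaks over 1 kb the share was 74.8%. Cutting to equal length takes the most peaks from siNC, the longest list. Leaving out a list lowers the number of lists that a region in all of them needs. The causes of the moves were not tested. Merging within 500 bp, asking for no siNC peak within 1 kb and using all contigs left the count of regions between 946 and 1172. Background coverage was lowest in siMBD3 (0.374 fragments per bp) and highest in siNC (2.96), and its part in the calls was not tested.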

Other observations

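Fold enrichments of the same recurrent added region were related between lists to differing degrees. Over the 401 regions of the CHD3-CHD4 class, siCHD3 and siCHD4 folds had a Pearson r of 0.62 on the log2 scale and a Spearman rho of 0.57. With siMBD3 the values were 0.31 and 0.26 for siCHD3 and 0.36 and 0.27 for siCHD4 (320 regions). The siMBD2 and siMBD3 folds gave 0.64 and 0.51 over the 54 regions of this class called in both. In the CHD5 class, siCHD3 and siCHD4 gave 0.50 and 0.44 (184 regions), siCHD5 and siMBD2 0.44 and 0.31 (398 regions), and siCHD3 and siCHD5 0.24 and 0.22 (410 regions). In control-shared regions siCHD3 and siCHD4 gave 0.77 and 0.45 (16100 regions), so their relation was not particular to the CHD3-CHD4 class. These are descriptions across regions that share libraries, and regions are not replicates.

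A local background over 10 times the lowest of the list was found at 24 recurrent added regions (2.31%) and at 592 control-shared regions (2.39%). The 24 had a median percentile of fold of 0.400, against 39.7 for the other added regions, whereas the 592 had 58.4, against 56.7 for the other control-shared regions.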
